A study of Drosophila melanogaster and Drosophila simulans and Drosophila erecta with 10 samples.

Results

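The microRNA and siRNA machinery was followed at the level of its messenger RNAs in testes of Drosophila melanogaster that carry a miR-983 mutation, set against control testes. A total of 8 genes were chosen by symbol: AGO1, AGO2, Dcr-1, Dcr-2, drosha, pasha, loqs and gw. They were picked from what their proteins do and not from any measured value, although earlier results of these data were known. Of the 8 genes, 6 are among the 7326 genes with expression values, and drosha and Dcr-1 were not analysed here. The question put to them was whether the machinery shifts when one of the microRNAs it makes and uses is lost.

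The groups are 2 libraries labelled miR-983 mutant (miR-983KO in the titles) and 2 labelled control, all RNA-seq of whole testes from adults 3 to 5 days old, kept at 25 °C. The mutant allele, the control strain and any marker that either stock carries are not described in the labels. The pairs of libraries are described as biological replicates, with no word on how many flies went into each. A similar pair of genotypes exists for D. simulans, but 0 of its 6744 identifiers matched a gene symbol, so the machinery was not analysed there.

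MicroRNAs are cut from hairpin transcripts in the nucleus by Drosha with its partner Pasha, exported, and cut again by Dicer-1 with its partner Loquacious (loqs). They are then loaded into Argonaute-1 (AGO1), which calls in GW182 (gw) to shorten the poly(A) tails of target messages and block their translation. A parallel branch makes small interfering RNAs: Dicer-2 cuts long double-stranded RNA, an isoform of Loquacious and the protein R2D2 assist it, and Argonaute-2 (AGO2) slices the targets. In fly testes this second branch also processes transcripts that fold into long hairpins, while germ cells guard against transposons with a separate, Dicer-independent set of Argonautes, the PIWI proteins.

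Values are log2 expression as deposited, 1 per library. What lies under the logarithm, and how libraries were scaled to each other, is not stated, and sequencing depth is unknown. Levels are therefore not compared between genes: where 1 gene is set against another within a library, only the change of that difference between genotypes is read. The lowest value in the table is 1.001, so every listed gene lies above that floor in all 4 libraries. The labelled tissue was checked against marker genes: all 7 spermatocyte markers (aly, can, sa, mia, nht, topi and comr) and 4 of 5 spermatid markers (dj, Mst77F and the protamine genes ProtA and ProtB) are listed, against 1 of 4 early germline markers (bgcn) and 1 of 6 somatic testis markers (upd1). Markers of tissues around the testis are listed too: 4 of 6 for muscle (Mhc, Act57B, Mlc2 and up), 3 of 6 for fat body (Obp44a, NLaz and Tsf1) and 1 of 7 for accessory gland (Acp95EF), with 0 of 2 for the ejaculatory bulb. The spermatid marker don and the early germline marker nos could not be matched to a gene name, so whether they are listed was not checked. In bulk tissue, fewer cells of a type and less RNA per cell cannot be told apart.

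No machinery gene passed the test (0 of 6; limma, Benjamini-Hochberg adjusted p under 0.05 over all 7326 genes, two-sided). Over all genes 2.28% were called, so 0 of 6 is near what the background share gives and does not set the machinery apart. None of the 6 had an unadjusted limma p under 0.05 either (0 genes), where 12.7% of all genes did, and the authors' deposited table marks 0 of the 6 as past p 0.05 by DESeq2, against 1.65% of all genes. Differences ran from -0.16 for pasha to 0.14 for gw on the log2 scale. The 6 genes had a median absolute log2 difference of 0.10, where the whole table had 0.075. Their median signed difference was -0.044, where the whole table had -0.011.

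**Figure D1:**
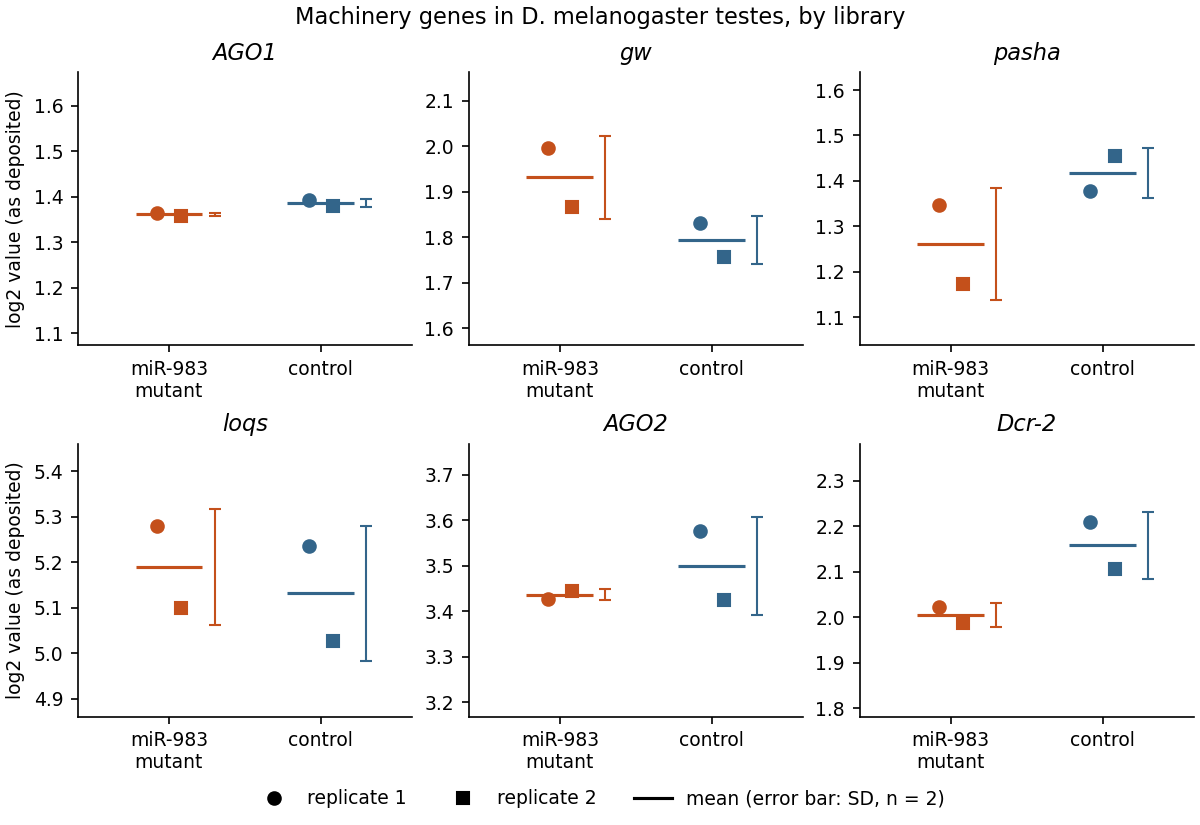
Log2 value of each of the 6 listed machinery genes in the 2 miR-983 mutant libraries (left, orange) and the 2 control libraries (right, blue), with the mean and SD of each genotype; each panel spans the same log2 range around its own gene. The genotypes lie apart for AGO1, gw, pasha and Dcr-2 and overlap for loqs and AGO2, and no gap between means exceeds 0.16.

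The nuclear step was represented by pasha, the Drosophila DGCR8, which recognises primary microRNA hairpins for Drosha. In log2 values pasha stood at 1.35 and 1.17 in the mutant libraries, against 1.38 and 1.46 in the control libraries. Both mutant libraries lay below both controls, but mutant replicate 1 stood only slightly under control replicate 1. The log2 difference was -0.16 ± 0.10 (SE), the widest gap among the machinery genes (limma adjusted p = 0.642). Its 95% interval reached from -0.40 to 0.088, or from 0.758-fold to 1.06-fold. The size depended on mutant replicate 2: the log2 difference was -0.069 without that library and -0.24 without mutant replicate 1. These values lie close to the floor of the table, where a pseudocount under the logarithm would compress differences. If the deposited values held a pseudocount of 1, the log2 difference of pasha would be -0.26 (limma adjusted p = 0.638), a setting added after the data were examined. The annotated span of pasha overlaps that of kek6, which was not analysed here.

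Loquacious is the double-stranded RNA binding partner of the Dicers. The log2 values of loqs were 5.28 and 5.10 in the mutant libraries, against 5.24 and 5.03 in the control libraries. The genotypes overlapped, and in each of them replicate 1 lay above replicate 2 by more than the genotypes differed. The gap between replicates was 0.18 in the mutant and 0.21 in the control, against a log2 difference between genotypes of 0.058 ± 0.091 (SE; limma adjusted p = 0.878). Its 95% interval ran from 0.899-fold to 1.21-fold. The direction turned when 1 library was left out, to -0.046 without control replicate 2 and to -0.032 without mutant replicate 1. Among the 6 machinery genes loqs had the largest spread within genotypes, and 83.8% of all genes had the same spread or less.

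The annotated span of loqs overlaps asRNA:CR44599, an antisense RNA whose own log2 values were 5.59 and 5.30 in the mutant libraries, against 5.44 and 5.38 in the control libraries. Whether reads were assigned by strand is not given, so it is unknown whether reads of loqs and of its antisense partner were kept apart. The antisense RNA did not pass the test (log2 difference 0.031 ± 0.093, SE; limma adjusted p = 0.945).

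AGO1 is the Argonaute that holds most fly microRNAs. The log2 values of AGO1 were 1.364 and 1.358 in the mutant libraries, against 1.392 and 1.380 in the control libraries. The mutant values lay below the controls in every library, by amounts that are small in themselves: the log2 difference was -0.025, and only 18.4% of all genes had an absolute difference of that size or less. The gap between replicates was smaller still, 0.0054 in the mutant and 0.012 in the control, and 0.61% of all genes had a spread within genotypes as small. The test moderates each gene's variance towards that of genes at a similar level, so the SE of AGO1 was 0.093 and its adjusted p 0.958 by limma. The 95% interval spanned 0.846-fold to 1.14-fold. Like those of pasha, the AGO1 values lie close to the floor of the table, where a pseudocount would compress differences, also those between replicates. Under the assumed pseudocount of 1 the log2 difference would be -0.040. The span of AGO1 overlaps mRpL53 and CG33155, which carry the same values as each other in all 4 libraries (log2 difference -0.12 ± 0.10, SE; limma adjusted p = 0.737).

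GW182 is the scaffold through which AGO1 recruits the deadenylases. In the mutant libraries gw had log2 values of 2.00 and 1.87, against 1.83 and 1.76 in the control libraries. Both mutant libraries lay above both controls, and mutant replicate 2 was near control replicate 1. The log2 difference was 0.14 ± 0.097 (SE), with a 95% interval from 0.941-fold to 1.29-fold (limma adjusted p = 0.659). It was 0.073 without mutant replicate 1 and 0.20 without mutant replicate 2, so the size rested on single libraries. No annotated gene overlaps gw.

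Set against AGO1 in the same library, which removes a scaling factor common to the library's genes if no pseudocount lies under the logarithm, gw lay at a log2 difference of 0.63 and 0.51 in the mutant libraries, against 0.44 and 0.38 in the control libraries. The change of this difference was 0.16, and the genotypes did not overlap. An exact permutation test of 2 against 2 libraries, two-sided, gave p = 0.333, the smallest it can give.

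AGO2 slices targets of small interfering RNAs and also holds a minority of microRNAs. The log2 values of AGO2 were 3.43 and 3.44 in the mutant libraries, against 3.58 and 3.42 in the control libraries. The mutant libraries stood close together and just above control replicate 2, so the genotypes overlapped. The log2 difference was -0.064 ± 0.081 (SE), with a 95% interval from 0.839-fold to 1.09-fold (limma adjusted p = 0.838). It rested on control replicate 1: leaving that library out gave 0.012, and leaving out control replicate 2 gave -0.14. The overlapping gene CG7739 had a log2 difference of -0.019 ± 0.078 (SE; limma adjusted p = 0.962).

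The Argonautes of the branches were set against each other too. AGO2 minus AGO1, taken within each library, was 2.06 and 2.09 in the mutant libraries, against 2.19 and 2.04 in the control libraries on the log2 scale. The genotypes overlapped, and the change was -0.039 (exact permutation test, two-sided, p = 1, in a design that cannot go below 0.333). Leaving out control replicate 1 gave 0.031 and leaving out control replicate 2 gave -0.11. The zero of such a difference has no meaning here, since the deposited levels are not known to be per length.

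Dicer-2 had the smallest p of the machinery genes. The log2 values of Dcr-2 were 2.02 and 1.99 in the mutant libraries, against 2.21 and 2.11 in the control libraries. Both mutant libraries lay below both controls, and they stood closer together than the control libraries did. The log2 difference was -0.15 ± 0.092 (SE), with a 95% interval from 0.776-fold to 1.04-fold. Neither the unadjusted limma p of 0.137 nor the limma adjusted p of 0.595 passed. With 1 library left out the log2 difference ranged from -0.21 to -0.10. Its sign could not turn in these fits, because the genotypes do not overlap. Rab4, which overlaps the span of Dcr-2, lay the other way, at 1.82 and 1.91 in the mutant libraries against 1.66 and 1.44 in the control libraries (log2 difference 0.32 ± 0.11, SE; limma adjusted p = 0.256).

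The partners of Dicer-2 had log2 differences above its own. The following 3 within-library differences were added after the values had been seen and carry no test. R2D2 minus Dicer-2 was 0.28 and 0.28 on the log2 scale in the mutant libraries, against -0.079 and 0.11 in the control libraries, a change of 0.27. Loqs minus Dcr-2 was 3.26 and 3.11 in the mutant libraries, against 3.03 and 2.92 in the control libraries, a change of 0.21. AGO2 minus Dcr-2 was 1.40 and 1.46 in the mutant libraries, against 1.37 and 1.32 in the control libraries, a change of 0.089. All 3 subtract Dcr-2, which was itself lower in both mutant libraries, so they are not separate from its own values.

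The 3 genes whose values across the 4 libraries were most like those of Dcr-2, each gene taken relative to its own mean, were CG30393, Dgkepsilon and MCPH1. Their root mean square distances from Dcr-2 were 0.0057, 0.0064 and 0.0071 on the log2 scale. With 4 libraries such a match is weak: of 5938 candidate genes, 500 lay within 0.05 of Dcr-2.

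Taken over genotypes, 4 of the 6 machinery genes did not overlap (AGO1, gw, pasha and Dcr-2), against 42.3% of all genes. In the mutant libraries gw lay higher, and AGO1, pasha and Dcr-2 lay lower. The mean log2 value over the 6 genes was 2.57 and 2.49 in the mutant libraries, against 2.60 and 2.52 in the control libraries, so the genotypes overlapped when the set was averaged. Replicate 1 lay above replicate 2 in both genotypes for 4 of the 6 genes (AGO1, gw, loqs and Dcr-2), which 30.6% of all genes also showed.

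**Figure D2:**
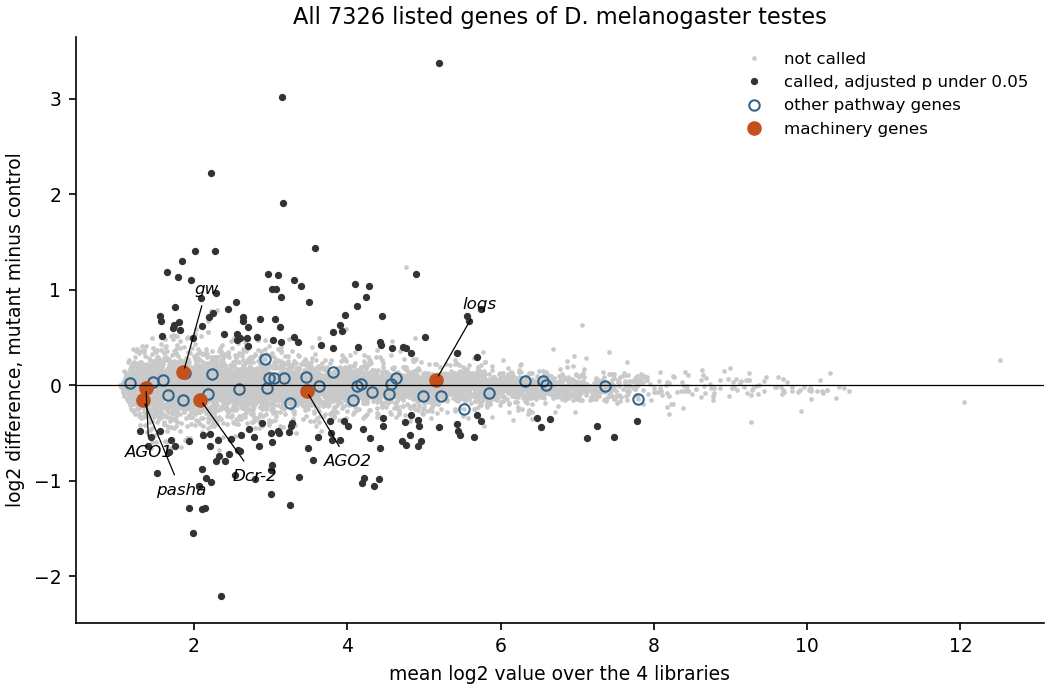
Log2 difference between miR-983 mutant and control against the mean log2 value of the 4 libraries for all 7326 listed genes; machinery genes are filled orange points, other pathway genes open blue circles and called genes black points. The 6 machinery genes lie within 0.16 of 0, inside the band of genes that were not called.

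The sizes of these differences can be set beside those that were called. The smallest absolute log2 difference among the 167 called genes was 0.30 and their median 0.62, and 0 of them were as small as the widest machinery gap of 0.16. Because a call depends on the size of a difference, this comparison was largely fixed by the test. It does not show whether gaps as small as those of the machinery are real. The widest machinery gap was exceeded by 1556 of the 7326 genes. By absolute difference pasha stood at the 78.8th percentile of all genes, Dcr-2 at the 78.1st, gw at the 74.4th, AGO2 at the 44.4th, loqs at the 41.2nd and AGO1 at the 18.4th. Every interval of the 6 genes held 0. Their bounds ran from -0.40 for pasha to 0.36 for gw, or from 0.758-fold to 1.29-fold on the deposited scale. If the deposited values held a pseudocount of 1, the outermost bounds would be 0.631-fold for pasha and 1.42-fold for gw.

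Loss of a microRNA can raise the genes it targets, and the machinery itself holds predicted sites. The authors' deposited table marks AGO1 as a target of miR-983-5p by TargetScan, and gw as a target of miR-983-5p by both TargetScan and PITA. TargetScan marks 393 of all genes for this arm (5.36%) and PITA marks 294 (4.01%), while 95 genes (1.3%) carry both marks. None of the 6 machinery genes is marked for miR-983-3p (0 genes), against 4.78% of all genes. The marked genes differed in sign, with gw at a log2 difference of 0.14 and AGO1 at -0.025, and neither passed the test.

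Beyond the machinery itself, 41 genes that act before, beside or after it were listed by role, of which 34 were matched to values. None passed the test (0 of 34; limma adjusted p under 0.05), against 2.28% of all genes, and the authors' deposited table marks 0 of the 34 by DESeq2. Before adjustment 3 of the 34 had a limma p under 0.05 (blanks, Trax and Not11), where 12.7% of all genes did. With 34 genes these counts are near what the background shares give and do not set the pathway genes apart. Their median log2 difference was -0.0055, with 16 positive and 18 negative, and 12 of the 34 did not overlap between genotypes (35.3%, against 42.3% of all genes). A predicted target mark of any kind fell on 6 of the 34, against 11.6% of all genes. With so few genes this does not set them apart.

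**Figure D3:**
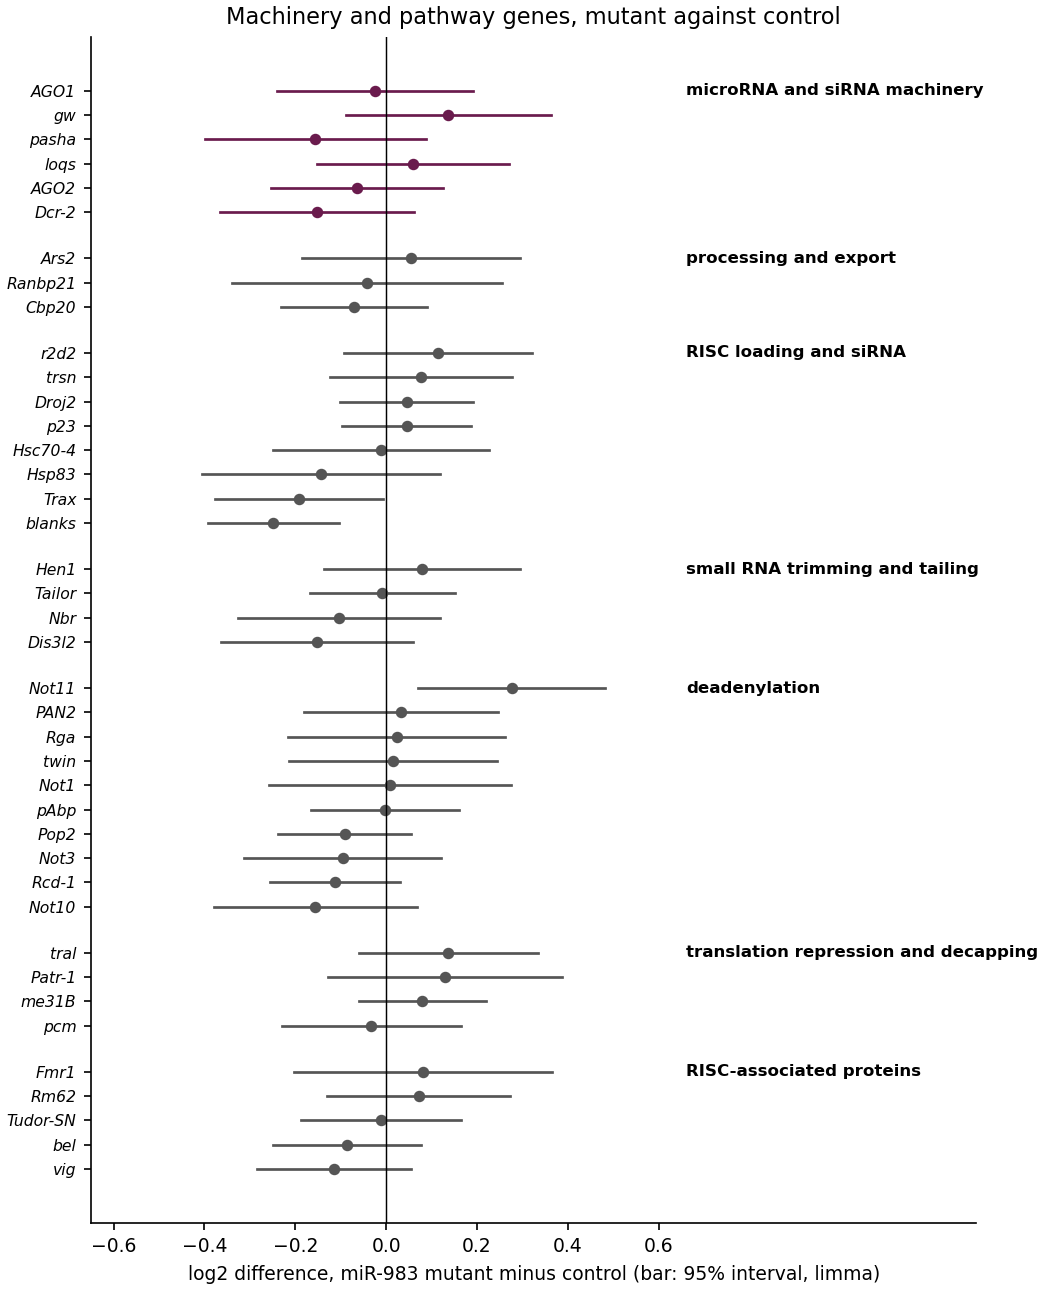
Log2 difference between miR-983 mutant and control with its 95% interval (limma) for the 6 machinery genes and the 34 other pathway genes, grouped by role. The intervals of blanks, Trax and Not11 do not hold 0, and none of the 40 genes passed after adjustment over all genes.

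Genes of siRNA binding and Argonaute loading held the smallest p. Blanks is a double-stranded RNA binding protein made in testes and needed for male fertility. Its log2 values were 5.36 and 5.43 in the mutant libraries, against 5.60 and 5.68 in the control libraries. The genotypes lay clearly apart, with a log2 difference of -0.25 ± 0.062 (SE) and a 95% interval from -0.39 to -0.10. Its unadjusted limma p was 0.00425 and its adjusted p 0.112, so it did not pass. The authors' deposited table marks blanks as a TargetScan target of miR-983-5p. Its values lay lower in the mutant, and a direct effect of miR-983 on it was not tested.

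Trax and translin (trsn) together form C3PO, an endonuclease that clears the passenger strand when AGO2 is loaded. Trax had log2 values of 3.16 and 3.15 in the mutant libraries, against 3.29 and 3.40 in the control libraries. The genotypes did not overlap, and the log2 difference was -0.19 ± 0.079 (SE; limma adjusted p = 0.370). Its partner trsn lay at 0.076 ± 0.086 (SE; limma adjusted p = 0.814). For r2d2, which helps Dicer-2 hand its products to AGO2, the log2 values were 2.30 and 2.27 in the mutant libraries, against 2.13 and 2.21 in the control libraries, without overlap (log2 difference 0.11 ± 0.089, SE; limma adjusted p = 0.702). The 4 chaperone genes of Argonaute loading lay between -0.14 and 0.046 on the log2 difference scale, none past the test. With 1 library left out, the log2 difference of r2d2 ran from 0.073 to 0.15 and that of trsn from 0.0043 to 0.15.

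The list of deadenylation genes, which act downstream of GW182 and include pAbp, had 10 members with values, 5 with positive and 5 with negative log2 differences. Not11, a subunit of the CCR4-NOT complex, had log2 values of 2.98 and 3.14 in the mutant libraries, against 2.78 and 2.79 in the control libraries. Its genotypes did not overlap, and the log2 difference of 0.28 ± 0.089 (SE) had an unadjusted limma p of 0.0149 and an adjusted p of 0.213. The other genes of this list lay between -0.16 for Not10 and 0.032 for PAN2, among them Rcd-1 at -0.11 ± 0.061 (SE; limma adjusted p = 0.536). The scaffold Not1 lay at 0.0090, the catalytic subunits twin at 0.016 and Pop2 at -0.091. With 1 library left out Not1 ran from -0.14 to 0.16 and twin from -0.11 to 0.14. Not1 is marked as a PITA target of miR-983-5p and twin as a TargetScan target of miR-983-3p in the authors' deposited table.

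Of 8 genes of translational repression and decapping, 4 were matched to values. The symbols Dcp1 and Dcp2 could not be matched to a gene name, so whether they have values was not checked. The repressor tral lay at a log2 difference of 0.14 ± 0.085 (SE; limma adjusted p = 0.609) and its partner helicase me31B at 0.080 ± 0.060 (SE; limma adjusted p = 0.691), each with both mutant libraries above both controls. For tral the margin was narrow, with mutant replicate 2 at a log2 value of 3.832 against 3.831 for control replicate 1. me31B is marked as a TargetScan target of miR-983-5p in the authors' deposited table. The decapping activator Patr-1 lay at 0.13. With 1 library left out tral ran from 0.045 to 0.23 and Patr-1 from 0.037 to 0.22, whereas me31B ran from 0.070 to 0.089.

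Processing and export, small RNA trimming and tailing, and the RISC-associated proteins showed log2 differences of similar size. Cbp20, of the nuclear cap-binding complex, lay at -0.071 ± 0.069 (SE; limma adjusted p = 0.785) and its partner Ars2 at 0.054 ± 0.10 (SE; limma adjusted p = 0.905). The exonuclease gene Dis3l2 lay at -0.15 ± 0.091 (SE; limma adjusted p = 0.587) and Nbr, which trims microRNAs held by AGO1 and is marked as a TargetScan target of miR-983-5p in the authors' deposited table, at -0.10 ± 0.096 (SE; limma adjusted p = 0.762). Among RISC-associated proteins vig lay at -0.11 ± 0.073 (SE; limma adjusted p = 0.619), bel at -0.086 ± 0.070 (SE; limma adjusted p = 0.719) and Fmr1, a PITA target of miR-983-5p in the authors' deposited table, at 0.081 ± 0.12 (SE; limma adjusted p = 0.872). The sizes rested on single libraries: with 1 left out, Cbp20 ran from -0.12 to -0.019, Ars2 from -0.041 to 0.15, Dis3l2 from -0.26 to -0.046 and Nbr from -0.16 to -0.046. Over the same fits vig ran from -0.20 to -0.028, bel from -0.17 to -0.0043 and Fmr1 from -0.10 to 0.26. Of the PIWI-clade Argonautes only aub was analysed here, at 1.73 and 1.70 in the mutant libraries against 1.86 and 1.68 in the control libraries, with overlapping genotypes (log2 difference -0.050 ± 0.10, SE; limma adjusted p = 0.915).

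**Figure D4:**
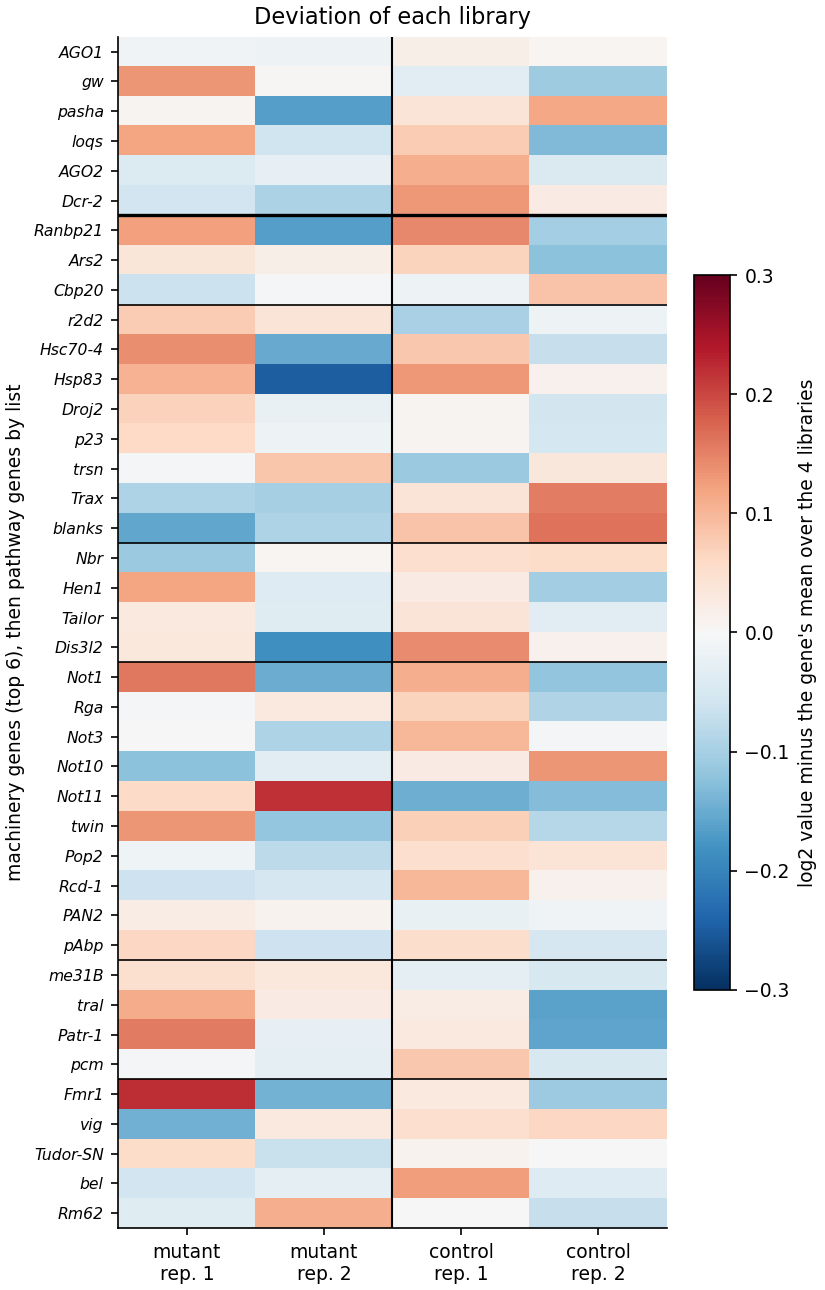
Deviation of each library from the gene's own mean over the 4 libraries, on the log2 scale, for the 6 machinery genes (top) and the 34 other pathway genes, with mutant libraries left of the line and control libraries right of it. Rows such as loqs, Not1 and twin are red in replicate 1 and blue in replicate 2 of both genotypes, whereas blanks and Trax differ by genotype.

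Of the 34 pathway genes 20 had replicate 1 above replicate 2 in both genotypes and 7 had the reverse. Across all genes 2239 and 2322 of 7326 did so, without such a lean. The mean log2 value over the 34 genes was 3.92 and 3.86 in the mutant libraries, against 3.94 and 3.87 in the control libraries. The libraries with the same number thus lay closer together than the libraries of the same genotype, and the genotypes overlapped. Markers of other tissues also varied by library: Acp95EF, the 1 accessory gland marker listed of 7, stood at 4.42 and 6.34 in the mutant libraries against 4.16 and 4.12 in the control libraries, and the fat body markers NLaz and Tsf1 rose in the mutant (log2 differences 0.62 and 0.80, limma adjusted p = 0.00771 and 0.0103), while the other listed fat body marker, Obp44a, lay at -0.0033 (limma adjusted p = 0.995) with overlapping genotypes. The 4 listed muscle markers overlapped between genotypes, with log2 differences from -0.096 for Mlc2 to 0.14 for up. Of the 7 spermatocyte markers 1 lay higher and 6 lower, from 0.45 for mia (limma adjusted p = 0.0537) to -0.19 for nht. Of the 4 listed spermatid markers 2 lay higher and 2 lower, from 0.25 for ProtB to -0.028 for ProtA. The log2 difference was 0.063 for bgcn and -0.23 for upd1. None of these muscle and testis markers passed. The part of any marker in the machinery values was not tested.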

How the data were processed

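RNA-seq libraries of D. melanogaster testes (2 miR-983 mutant, 2 control) were used. TopHat is named in the submitters' processing notes, and no source used here gives the build, annotation, counter or strand handling. The authors deposited log2 expression values, a log2 fold change that equals the difference of the genotype means within 1.5e-06, and Yes or No marks in other columns (TargetScan and PITA targets, and DESeq2 p under 0.05), per the file headers. All 7326 genes were fitted with limma 3.58.1 in R 4.3.3 (empirical Bayes with trend, two-sided, no filter, no pseudocount added), and p-values were adjusted over all genes. Intervals are 95% intervals of the moderated fit. In this fit the spread between the 2 libraries per genotype is drawn towards that of genes at a similar level, and the p-values rest on that moderated spread. The fit was tested on simulated data. Figures used matplotlib 3.10.9 in Python 3.11.15.

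Of the identifiers 7195 matched a symbol. Pathway genes were matched by symbol, and 2 by synonym (nbr as Nbr, HPat as Patr-1). Of the 41, 7 were not analysed here. Among them the symbols Hop, Dcp1 and Dcp2 could not be matched to a gene name, so their values were not looked up. Gene overlaps come from the annotation of assembly Release 6 plus ISO1 MT. The machinery genes, the lists and the tests were chosen with earlier results of these data known. By rule all machinery genes were named, then each pathway list's genes past the threshold and its 2 smallest p-values, the listed markers, and the 3 genes most like the machinery gene of smallest p; further pathway genes and the overlapping genes were named after their values were seen. The planned within-library pairs with Dcr-1 or drosha could not be computed. Alternatives were a replicate block, 2 scalings, a pseudocount of 1 added or taken off, a filter on low values, 2 variance priors and each library left out. No column was left unmapped (0 columns).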

Additional observations from a re-analysis of the deposited data

How the results depend on the processing

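No machinery gene was called under any of the alternatives run (0 genes each), with limma adjusted p between 0.400 and 1.000. AGO1, gw, pasha and Dcr-2 kept their direction in all of them that could be fitted. The filter on a mean log2 value of at least 2 removes AGO1, gw and pasha. Since the genotypes of all 4 genes do not overlap, leaving out 1 library could not turn their sign. The replicate block and the variance priors leave the difference itself unchanged. The kept direction therefore adds little to the absence of overlap. AGO2 and loqs turned when 1 library was left out, with ranges from -0.14 to 0.012 and from -0.046 to 0.16. Of the 21 other pathway genes whose differences are followed by name, 4 turned likewise (Ars2 from -0.041 to 0.15, Fmr1 from -0.10 to 0.26, Not1 from -0.14 to 0.16 and twin from -0.11 to 0.14), and 16 of the 21 turned or moved by over 1.5 times; the other 5 were blanks, me31B, Not11, PAN2 and Trax. The same turn was seen for aub (-0.14 to 0.041), CG7739 (-0.063 to 0.025), asRNA:CR44599 (-0.11 to 0.17) and Obp44a (-0.12 to 0.11), and Obp44a also lay at 0.0091 after median ratio scaling and 0.033 after quantile normalization. AGO2 minus AGO1 ranged from -0.11 to 0.031, and gw minus AGO1 was 0.23 if a pseudocount of 1 is taken off (an alternative added after the data were examined).

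The number of called genes over the whole table was 167 and ranged from 118 to 304 with 1 library left out (304 without control replicate 1, 259 without control replicate 2). With a replicate block it was 503. The libraries share only a number, and the deviations of same-numbered libraries from their genotype means correlated at 0.147 across genes, with 1 such correlation to be had. With the block 1 of the 34 pathway genes was called (blanks, log2 difference -0.25, limma adjusted p = 0.00977), against 0 without it; no machinery gene was. Depth is unknown, and 2 libraries per genotype limit the precision.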
